A study of Mus musculus with 22 samples.

Results

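Ptprc, Cybb, Fcgr4, Fpr2, Plac8, Samsn1, Spi1, Dok3 and S100a8 are 9 genes of phagocytes and other leukocytes, out of 23119 genes counted in the mouse striatum. They were chosen by measured values, as genes with higher levels after oxycodone in earlier results from these same libraries. Ptprc, Cybb, Fcgr4, Fpr2 and Plac8 had been called in the dorsal striatum, and the contrast that brought in the other 4 is not given in the sources used here. The levels of the 9 genes by treatment are therefore a description in both regions, and nothing rests on a test of them. Their relation to haemoglobin transcripts, which did not choose them, was tested.

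The libraries come from adult male C57BL/6J mice. One set of mice self-administered oxycodone, an opioid analgesic, at 0.25 mg/kg per infusion for 4 h a day over 14 days, and yoked mice received saline infusions. There were 12 ventral libraries, 6 for each treatment, and 10 from the dorsal striatum (caudate and putamen), 5 for each treatment. Total RNA from dissected tissue was depleted of ribosomal RNA and sequenced with strand information, so every cell type in the tissue block contributes, blood left in its vessels included. In such bulk RNA, fewer cells of a type and less RNA per cell cannot be told apart.

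Phagocytes are the white cells that engulf particles: neutrophils, monocytes, macrophages and, in the brain, microglia. They recognise antibody-coated or bacterial material through Fc and formyl peptide receptors, kill it with superoxide from the NADPH oxidase, and carry the tyrosine phosphatase CD45 on their surface like nearly all nucleated blood cells. Microglia, the resident phagocytes of the brain, depend on the transcription factor PU.1, which also drives monocyte and neutrophil development and binds purine-rich DNA with a GGAA core.

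PU.1 is the product of Spi1, so the sequences upstream of the other genes are shown with matches to GAGGAA, a purine-rich core of PU.1 sites, in capitals on either strand (TTCCTC is its reverse complement). RefSeq promoter windows (GRCm38.p6, from 250 bases before to 50 bases after a start site, 300 bases in all) were found for 8 of the 9 genes, in 10 windows. GAGGAA occurred in 7 of the 10 windows, belonging to 7 of the 8 genes, and in 28.3% of all 32851 windows of the same length. The longer GAGGAAGT, which contains GAGGAA, occurred in 3 of the 10 windows, those of Fcgr4, S100a8 and Samsn1, and in 3.2% of all windows. The plain core GGAA occurred in all 10 windows and in 96% of all windows. A match describes letters and is not a measured binding site. The 250 bases before the start site are given 5′ to 3′ on the gene's strand for the 3 genes with the longer match and for Dok3, the 1 gene with a window and no match. They lie at chr16:75909267-75909516 (minus strand), chr1:171018676-171018925 (plus strand), chr3:90668821-90669070 (plus strand) and chr13:55528539-55528788 (minus strand).
Samsn1: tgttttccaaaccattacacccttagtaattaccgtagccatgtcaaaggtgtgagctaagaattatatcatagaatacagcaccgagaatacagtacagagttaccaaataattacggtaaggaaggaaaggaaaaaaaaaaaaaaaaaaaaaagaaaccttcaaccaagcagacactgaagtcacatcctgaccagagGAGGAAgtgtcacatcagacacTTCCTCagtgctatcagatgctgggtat
Fcgr4: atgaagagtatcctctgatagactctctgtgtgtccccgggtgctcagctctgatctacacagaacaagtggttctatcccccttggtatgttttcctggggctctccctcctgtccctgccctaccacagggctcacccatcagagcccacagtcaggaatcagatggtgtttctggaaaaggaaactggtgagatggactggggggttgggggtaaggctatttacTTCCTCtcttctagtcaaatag
S100a8: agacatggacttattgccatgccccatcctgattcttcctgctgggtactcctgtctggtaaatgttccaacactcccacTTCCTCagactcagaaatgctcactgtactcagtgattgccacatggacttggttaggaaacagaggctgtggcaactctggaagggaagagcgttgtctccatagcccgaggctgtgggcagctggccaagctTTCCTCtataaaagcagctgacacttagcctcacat
Dok3: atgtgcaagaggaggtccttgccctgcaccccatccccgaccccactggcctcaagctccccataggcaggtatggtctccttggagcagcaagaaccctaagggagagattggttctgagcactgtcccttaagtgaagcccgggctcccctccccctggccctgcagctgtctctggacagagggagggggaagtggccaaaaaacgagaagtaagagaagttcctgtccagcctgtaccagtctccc
In Samsn1 the matches begin 50 and 28 bases before the start site, on opposite strands. In Fcgr4 the match begins 22 bases before it, and in S100a8 the matches begin 170 and 36 bases before it.

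Ventral libraries held 8408829 to 11000345 counts and dorsal libraries 11314079 to 21921963. Levels are in CPM (counts relative to the library total, scaled by TMM factors), and the text gives group means with standard deviations (SD). Labels do not say that each library is a separate animal. In the dorsal set the title number repeats within a treatment for 2 pairs, so spreads may in part be technical. Markers of the striatum set 2 ventral libraries apart. The summed CPM of 9 striatal neuron genes was 264 in ventral saline replicate 6, against a median of 3045 in its group, and its summed CPM of 6 glutamatergic neuron genes was 1408, against at most 372.9 in the other saline libraries. Ventral oxycodone replicate 6 had 1828 CPM of choroid plexus and ependyma genes, against a group median of 43.6. The ventral log2 change of each of the 9 genes is given with and without both of these libraries.

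All 9 genes had higher mean levels after oxycodone than after saline in both regions. In the dorsal striatum the fitted log2 changes ran from 0.26 to 2.21 with a median of 2.02, where the median over all 14595 genes tested was -0.0083. In the ventral striatum they ran from 0.67 to 2.17 with a median of 0.79, where the median over all 14116 genes was -0.0033. Without both sixth ventral libraries the median was 1.47, with the genes of the full ventral fit kept, as in the log2 changes given below without them. When low counts were filtered anew without these libraries, Fcgr4, Fpr2 and Plac8 were not tested. The median of the other 6 genes was then 1.08. Dorsally, 5 of the 9 genes (Ptprc, Cybb, Fcgr4, Fpr2 and Plac8) passed an adjusted p of 0.05 in the edgeR fit, where 0.206% of all genes tested passed upward or downward. That contrast chose them, so the count is not a result. In the ventral edgeR fit 0 of 9 passed and 0% of all genes did, with adjusted p from 0.262 to 0.747 for the 9. At an unadjusted p under 0.05 there were 1289 ventral genes, while DESeq2 called 38 genes, Dok3 among them, and limma-voom with quality weights called 61, with Fpr2, Samsn1, Spi1 and Dok3 among them.

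**Figure D1:**
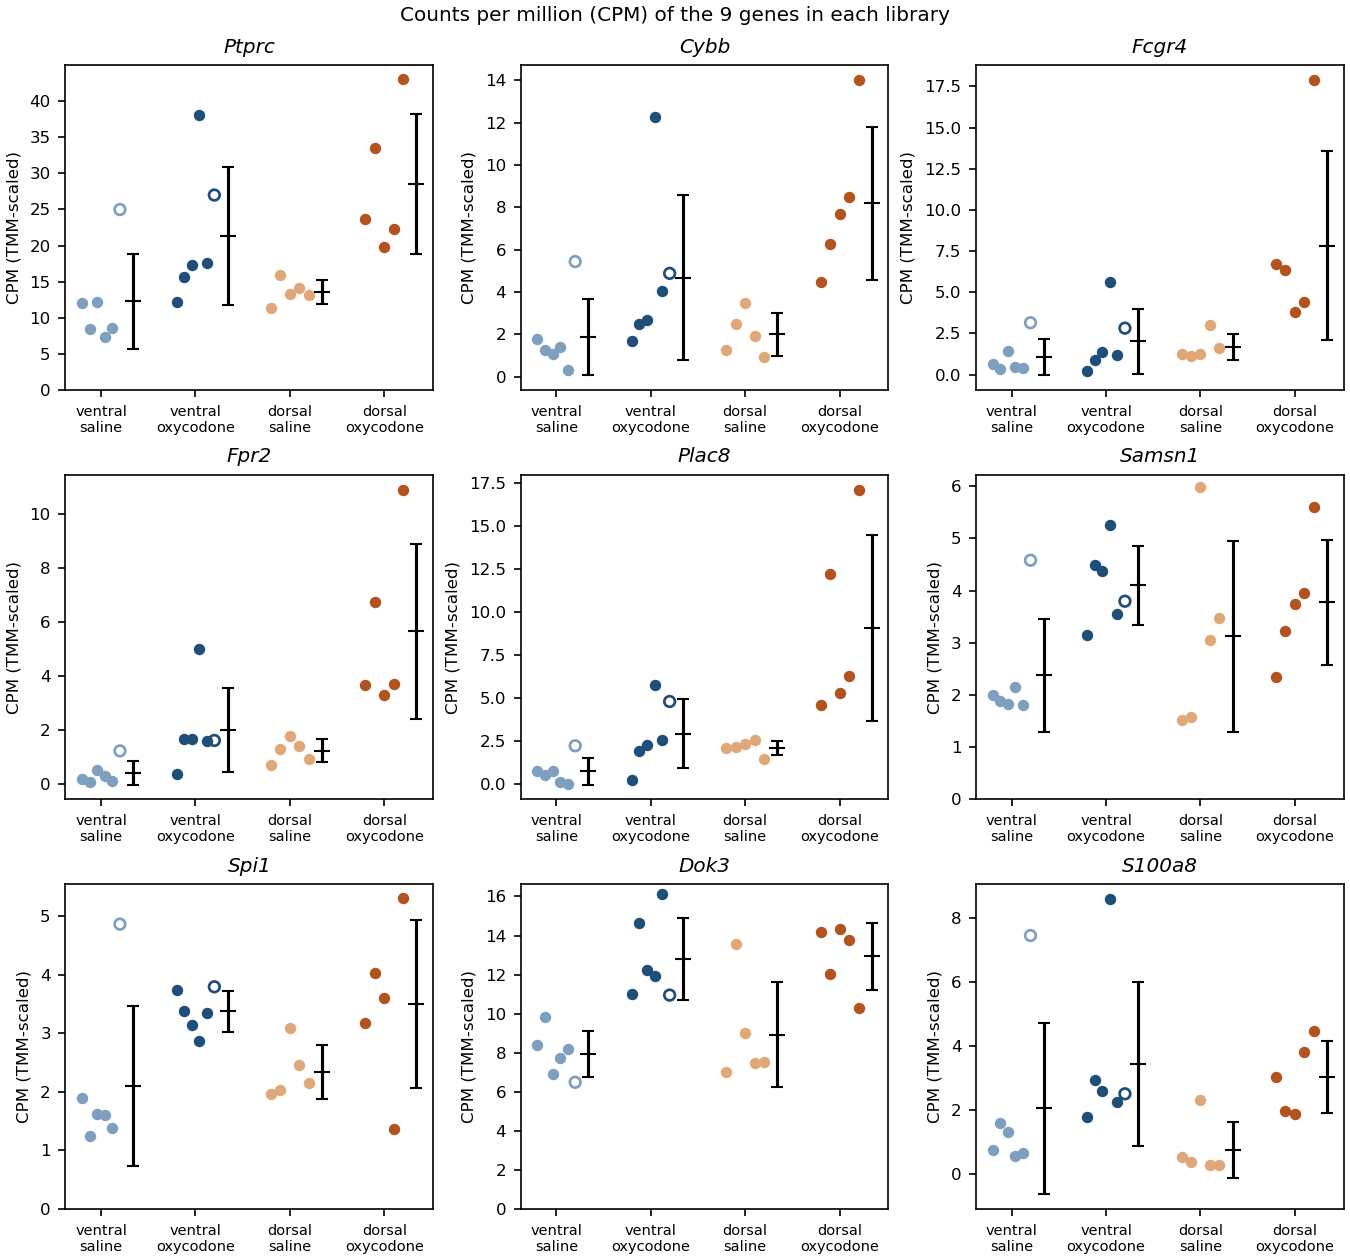
TMM-scaled CPM of the 9 genes in each of the 22 libraries, by region and treatment. Points are libraries in replicate order, open circles are replicate 6 of each ventral group, and bars are the group mean and SD. Dorsal oxycodone points lie above all dorsal saline points for Ptprc, Cybb, Fcgr4, Fpr2 and Plac8, and the open ventral saline point is the highest of its group for every gene except Dok3.

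Ptprc encodes CD45, the receptor-type tyrosine phosphatase that activates Src-family kinases in leukocytes (ENSMUSG00000026395, GRCm38 chromosome 1, 138062861 to 138175708, minus strand). In the dorsal striatum its levels were 11.4, 15.9, 13.3, 14.1 and 13.2 CPM in saline replicates 1 to 5. They were 23.7, 33.5, 19.8, 22.3 and 43.1 CPM in oxycodone replicates 1 to 5, so each oxycodone library lay above each saline one, with replicate 5 the highest. The dorsal means were 13.6 ± 1.65 and 28.5 ± 9.7 CPM (SD, n = 5 and 5). Fitted, this was a log2 change of 1.07 with a standard error (SE) of 0.20. Ventral saline libraries had 7.31 CPM at the lowest, 10.3 at the median and 25.0 at the highest, and ventral oxycodone libraries 12.2, 17.4 and 38.1. The ventral groups overlapped mainly through saline replicate 6, which held the 25.0 CPM. The next saline library, replicate 3 at 12.21 CPM, also lay just above oxycodone replicate 1 at 12.19 CPM. The ventral log2 change was 0.79 with SE 0.34, and 1.03 with SE 0.30 without both sixth libraries.

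Other genes of CD45 signalling were read from a list of 10, of which 9 were tested in each region. Ptprc itself was called higher in the dorsal fit, and 0 of the 9 were called in the ventral fit. Lyn, a Src-family kinase, had a dorsal log2 change of 0.89 with SE 0.27 and did not pass, at an adjusted p of 0.355. Lck, the kinase of T cells, had dorsal means of 2.46 CPM after saline and 2.01 CPM after oxycodone. The median log2 change of the list was 0.31 dorsally and 0.27 ventrally. The integrin chains Itgal and Itgb2, which pair to form the leukocyte adhesion receptor LFA-1, were the 2 genes called higher dorsally among 10 tested of a list of leukocyte integrins and adhesion molecules. All 10 tested had positive log2 changes in each region, with a median of 0.75 dorsally and 0.51 ventrally, and 0 were called ventrally.

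Fcgr4 encodes an activating Fc receptor for immunoglobulin G found on monocytes, macrophages and neutrophils (ENSMUSG00000059089, chromosome 1, 171018920 to 171029761, plus strand). Across dorsal saline replicates 1 to 5 it stood at 1.25, 1.15, 1.23, 3.02 and 1.64 CPM. Dorsal oxycodone replicates 1 to 5 held 6.74, 6.34, 3.81, 4.38 and 17.9 CPM. The groups did not overlap, and oxycodone replicate 5 stood far above the other 4. Mean dorsal levels were 1.65 ± 0.785 and 7.83 ± 5.76 CPM (SD, n = 5 and 5). The fitted log2 change was 2.21 with SE 0.43. Without oxycodone replicate 5 the log2 change was 1.66. Ventral saline libraries had 0.314, 0.53 and 3.15 CPM at the lowest, median and highest, and ventral oxycodone libraries 0.197, 1.28 and 5.60. These ranges overlapped over most of their length: the lowest of the 12 values was an oxycodone library, replicate 1. Fitted over the 12 ventral libraries, the log2 change was 0.88 with SE 0.71, and without both sixth libraries it was 1.47 with SE 0.75. Without saline replicate 6 alone it was 1.61, and without oxycodone replicate 4 alone 0.26.

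Of 7 genes on an Fc receptor list, Fcgr4 alone was called in the dorsal fit and 0 in the ventral one, with 6 of 7 log2 changes positive in each region. Fcgr3, a low-affinity activating receptor, had 23.4 and 33.8 CPM in dorsal saline and oxycodone libraries, a log2 change of 0.53 (SE 0.18, edgeR adjusted p = 0.459). Fcer1g, the signalling chain that Fcgr4 needs at the cell surface, had a dorsal log2 change of 0.34 with SE 0.30, and a ventral one of 0.17 with SE 0.24. Syk, the kinase recruited by that chain, had log2 changes of 0.52 (SE 0.36) dorsally and 0.63 (SE 0.22) ventrally.

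Fpr2 encodes a receptor for formylated peptides and other chemoattractants on neutrophils and macrophages (ENSMUSG00000052270, chromosome 17, 17887824 to 17893952, plus strand). Its dorsal levels were, in saline replicates 1 to 5, 0.711, 1.32, 1.801, 1.42 and 0.936 CPM, and in oxycodone replicates 1 to 5, 3.68, 6.74, 3.31, 3.74 and 10.9. The lowest oxycodone library was above the highest saline library, and the log2 change was 2.19 with SE 0.46. Among the 5 genes that passed dorsally Fpr2 lay nearest the threshold, with an edgeR adjusted p of 0.034, and S100a8 was the nearest outside it, with 0.407. Ventral saline libraries had 0.104, 0.266 and 1.24 CPM at the lowest, median and highest, and ventral oxycodone libraries 0.393, 1.65 and 5.01. All 6 ventral oxycodone libraries except replicate 1 were above all 6 saline libraries. The ventral log2 change was 2.17 with SE 0.62 and, without both sixth libraries, 2.92 with SE 0.67. It was 2.88 without saline replicate 6 alone. Ventral values rest on few reads, between 1 and 42 counts per library.

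Fpr2 shares part of its locus and strand with Fpr3 in GENCODE M21. The sources used here do not say whether reads in the shared stretch were counted for either gene or left out. Fpr3, Fpr-rs4, Fpr-rs6 and Fpr-rs7 were listed at 0 in all 22 libraries, and Fpr-rs3 had 1 count in all. Fpr1, the closest expressed relative of Fpr2 in this table, had 2.97 and 8.45 CPM in dorsal saline and oxycodone libraries, a log2 change of 1.48 (SE 0.45, edgeR adjusted p = 0.361). For Fpr1 the dorsal groups overlapped through 1 oxycodone library, and the other 4 were above all 5 saline libraries. Anxa1, which encodes annexin A1, a ligand of Fpr2, had 1.13 and 2.55 CPM dorsally and 2.18 and 1.29 CPM ventrally, in saline and oxycodone libraries, without passing in either fit. Of the 3 genes of this list tested in each region, only Fpr2 was called, and only dorsally; the difference between regions was not tested.

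Cybb encodes gp91phox, the membrane subunit through which the phagocyte NADPH oxidase passes electrons to oxygen (ENSMUSG00000015340, chromosome X, 9435252 to 9487771, minus strand). Dorsal saline replicates 1 to 5 held 1.25, 2.47, 3.46, 1.92 and 0.936 CPM. Dorsal oxycodone replicates 1 to 5 held 4.46, 6.28, 7.70, 8.48 and 14.0 CPM, all above the saline libraries. Mean levels were 2.00 ± 1.01 and 8.18 ± 3.60 CPM (SD, n = 5 and 5). The dorsal log2 change was 2.03 with SE 0.40. The ventral saline libraries had 0.318, 1.33 and 5.44 CPM at the lowest, median and highest, and ventral oxycodone libraries 1.67, 3.37 and 12.3. Saline replicate 6 (5.44 CPM) was above every ventral oxycodone library except replicate 4, and the other 5 saline libraries were below 1.79 CPM. Ventrally the log2 change was 1.28 with SE 0.60, and 1.95 with SE 0.60 without both sixth libraries. Without saline replicate 6 alone it was 1.97, and without oxycodone replicate 4 alone 0.72.

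Other subunits of the oxidase differed less than Cybb. Of 8 genes on the list, 7 had positive log2 changes in each region, with medians of 0.54 dorsally and 0.42 ventrally, and Cybb was the only one called, in the dorsal fit. Cyba, which encodes the membrane partner p22phox, averaged 8.29 ± 2.65 CPM after saline and 15.6 ± 4.45 CPM after oxycodone in the dorsal libraries (SD, n = 5 and 5). For Cyba all 5 oxycodone libraries were above all 5 saline ones, and the log2 change was 0.90 (SE 0.25, edgeR adjusted p = 0.183). The cytosolic subunit Ncf1 had a dorsal log2 change of 0.14 (SE 0.28). Ncf4, another cytosolic subunit, had 1.31 and 3.05 CPM dorsally and 0.79 and 1.81 CPM ventrally, and passed in neither fit.

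Plac8 encodes a small cysteine-rich protein of myeloid and lymphoid cells (ENSMUSG00000029322, chromosome 5, 100553725 to 100572245, minus strand). In dorsal saline replicates 1 to 5 it was at 2.04, 2.11, 2.31, 2.51 and 1.45 CPM, a narrow range. Dorsal oxycodone replicates 1 to 5 held 4.57, 12.2, 5.25, 6.25 and 17.1 CPM, without overlap and with replicates 2 and 5 well above the other 3. The log2 change was 2.12 with SE 0.38. Ventral saline libraries ranged from 0 to 2.19 CPM with a median of 0.629, and ventral oxycodone libraries from 0.197 to 5.72 with a median of 2.39. The 0 was saline replicate 5, whose depth allows up to 0.318 CPM (3 counts, counting error only), and the 2.19 was saline replicate 6. Above all 6 ventral saline libraries stood 4 of 6 oxycodone libraries. The ventral log2 change was 1.95 with SE 0.72, and 2.497 with SE 0.76 without both sixth libraries. It was 2.71 without saline replicate 6 alone.

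S100a8 encodes a calcium-binding protein that forms calprotectin with S100a9 and is abundant in neutrophils (ENSMUSG00000056054, chromosome 3, 90668978 to 90670035, plus strand). Levels in dorsal saline replicates 1 to 5 were 0.533, 0.352, 2.31, 0.274 and 0.281 CPM, and dorsal oxycodone replicates 3.01, 1.96, 1.87, 3.81 and 4.46. A single library, saline replicate 3, overlapped the oxycodone group. The dorsal log2 change was 2.02 with SE 0.66, and 3.07 without saline replicate 3. At the lowest, median and highest, the ventral saline libraries had 0.537, 1.01 and 7.44 CPM and the oxycodone libraries 1.77, 2.54 and 8.58. The highest value of each ventral group, in saline replicate 6 and oxycodone replicate 4, was far above the next library of its group, at 1.57 and 2.92 CPM. Ventrally the log2 change was 0.71 with SE 0.64, 1.88 with SE 0.48 without both sixth libraries, 1.81 without saline replicate 6 alone and 0.21 without oxycodone replicate 4 alone.

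S100a9, the partner of S100a8, had 1.54 and 2.62 CPM in dorsal saline and oxycodone libraries and 2.13 and 3.30 CPM in ventral ones. Its dorsal groups overlapped: a single oxycodone library, 1 of 5, exceeded all saline ones. Its log2 change was 0.74 with SE 0.63. A list of 8 genes held S100a8, S100a9, other S100 genes and the receptor genes Tlr4 and Ager. Of its log2 changes 7 were positive dorsally and 4 ventrally, and 0 genes were called in either edgeR fit.

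Samsn1 encodes HACS1, an adaptor with SH3 and SAM domains in haematopoietic cells (ENSMUSG00000022876, chromosome 16, 75858793 to 76022281, minus strand). Its levels in dorsal saline replicates 1 to 5 were 1.51, 1.58, 5.98, 3.06 and 3.46 CPM, and dorsal oxycodone replicates 2.34, 3.23, 3.74, 3.95 and 5.60. The highest of the 10 dorsal libraries was saline replicate 3, and the log2 change was 0.26 with SE 0.44. In the ventral striatum saline libraries had 1.804, 1.94 and 4.58 CPM at the lowest, median and highest, and oxycodone libraries 3.15, 4.08 and 5.24. Saline replicate 6 held the 4.58 CPM, and the other 5 saline libraries lay between 1.804 and 2.15 CPM, below all 6 oxycodone libraries. The ventral log2 change was 0.77 with SE 0.25, and 1.09 with SE 0.18 without both sixth libraries. Gm15555 is annotated antisense to Samsn1 and is not in the count table.

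Dok3 encodes an adaptor that restrains immunoreceptor signalling in B cells and myeloid cells (ENSMUSG00000035711, chromosome 13, 55523231 to 55529296, minus strand). Ventral saline libraries had 6.49, 7.96 and 9.82 CPM at the lowest, median and highest, and ventral oxycodone libraries 10.9, 12.1 and 16.1. All 6 oxycodone libraries were above all 6 saline libraries, and saline replicate 6 was here the lowest of its group. Mean levels were 7.92 ± 1.18 and 12.8 ± 2.10 CPM (SD, n = 6 and 6). Here the log2 change was 0.69 with SE 0.13, and without both sixth libraries 0.67 with SE 0.13. Dok3 was the 1 of the 9 genes whose ventral groups did not overlap, where 0.354% of all genes had every oxycodone library above every saline one. As the 9 genes were chosen by their levels after oxycodone, this count is a description. Dorsal saline replicates 1 to 5 held 7.02, 13.6, 9.01, 7.49 and 7.54 CPM, and dorsal oxycodone replicates 14.2, 12.0, 14.3, 13.8 and 10.3. Saline replicate 2 lay inside the dorsal oxycodone range, and the log2 change was 0.54 with SE 0.24. Among 10 Dok, Samsn1 and Sash genes, medians of the log2 change were 0.13 dorsally and 0.09 ventrally, and 0 were called. Dok1 and Dok2, the nearest relatives of Dok3 in leukocytes, had ventral log2 changes of 0.16 (SE 0.30) and 0.69 (SE 0.32).

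Spi1 encodes PU.1 (ENSMUSG00000002111, chromosome 2, 91082390 to 91115756, plus strand). Ventral oxycodone libraries lay close together, at 2.86, 3.36 and 3.80 CPM for the lowest, median and highest. Ventral saline libraries had 1.25, 1.62 and 4.86 CPM, with saline replicate 6 above all 6 oxycodone libraries and the other 5 saline libraries, at most 1.89 CPM, below all of them. The ventral log2 change was 0.67 with SE 0.30, and 1.07 with SE 0.18 without both sixth libraries. Dorsal saline replicates 1 to 5 held 1.96, 2.02, 3.10, 2.47 and 2.15 CPM, and dorsal oxycodone replicates 3.18, 4.03, 3.60, 1.36 and 5.32. Dorsally, oxycodone replicate 4 was below all saline libraries and the other 4 were above all of them. The log2 change there was 0.58 with SE 0.46. Of 12 genes of PU.1 and other myeloid transcription factors in the table, 6 were tested in each region, with 0 called. Irf8, a partner of PU.1 in myeloid cells, had a ventral log2 change of 0.46 with SE 0.24 and a dorsal one of 0.20 with SE 0.25.

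**Figure D2:**
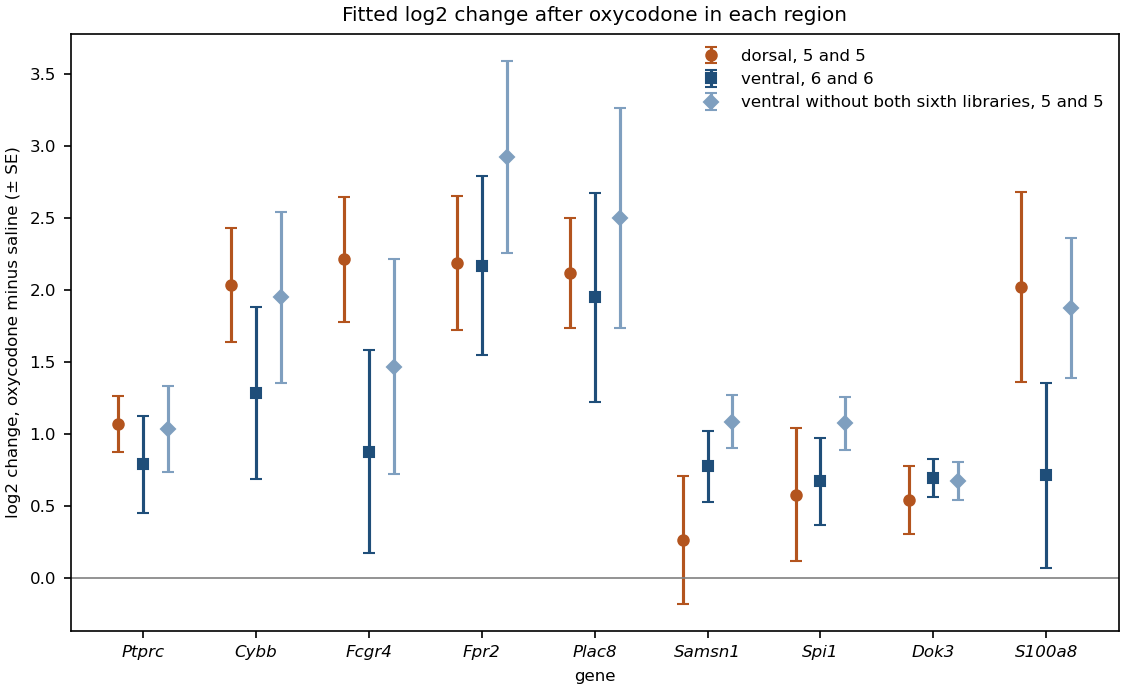
Fitted log2 change (oxycodone minus saline) of the 9 genes with its SE, in the dorsal fit of 5 and 5 libraries, the ventral fit of 6 and 6, and the ventral fit without both sixth libraries. All points are above 0. Leaving out both sixth libraries moved the ventral value of S100a8 from 0.71 to 1.88 and that of Dok3 from 0.69 to 0.67.

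Dorsally, 5 of the 9 genes had every oxycodone library above every saline one, where 0.843% of all genes did. Without both sixth libraries the ventral groups did not overlap for 4 of the 9 genes, Samsn1, Spi1, Dok3 and S100a8, where 1.08% of all genes did, and in that edgeR fit 0 of 9 genes and 0% of all genes passed, with adjusted p from 0.105 to 0.512. These 4 were not the 5 that separated dorsally. The 9 genes were chosen for higher levels after oxycodone in these same libraries, so the counts in both regions are descriptions and not results. Ventral saline replicate 6 was the highest saline library for 8 of the 9 genes. Ventral oxycodone replicate 4 was the highest of its group for 7 of 9, dorsal oxycodone replicate 5 for 8 of 9, and ventral oxycodone replicate 1 was the lowest of its group for 7 of 9. Without ventral saline replicate 6 alone the median log2 change of the 9 genes was 1.61. Without dorsal oxycodone replicate 5, or without dorsal saline replicate 5, 0 of the 9 genes passed the dorsal threshold, with median log2 changes of 1.66 and 1.79. Dorsal saline replicate 2, 3 or 4 left out gave 3 genes past it, saline replicate 1 gave 4 and oxycodone replicate 2 gave 2.

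For 7 of the 9 genes the mean levels had the same order: ventral saline lowest, then dorsal saline, ventral oxycodone and dorsal oxycodone. The ranges of neighbouring groups in this order overlapped for each of the 9 genes. The other 2 genes departed from the order, Samsn1 with its highest mean in ventral oxycodone libraries and S100a8 with its lowest in dorsal saline ones. Regions were sequenced to different depths, and the difference between them was not tested. Per kilobase of exon, Dok3 was the most abundant of the 9 in dorsal saline libraries, at 3.63 CPM per kb, and Cybb the least, at 0.345. In dorsal oxycodone libraries the means were 6.24 CPM per kb for Fcgr4, 5.69 for Plac8, 5.26 for Dok3, 4.38 for Fpr2 and 4.35 for S100a8. The first place of Fcgr4 rested on replicate 5, at 14.2 CPM per kb: in the other 4 libraries Fcgr4 lay between 3.04 and 5.37 CPM per kb and Dok3 between 4.90 and 5.82, with Dok3 above Fcgr4 in 3 of those 4. Ptprc, Cybb and Spi1 lay at 1.56, 1.41 and 1.298 CPM per kb, and Samsn1 at 0.764.

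Haemoglobin transcripts mark red cells and their precursors, so their level bears on how much blood RNA a library holds. The haemoglobin level of a library was taken as the mean log2 CPM of Hba-a1, Hba-a2, Hbb-bs and Hbb-bt, of which each pair is nearly identical in sequence. Dorsal saline replicates 1 to 5 stood at 6.07, 6.20, 5.40, 5.71 and 5.80, and dorsal oxycodone replicates at 7.09, 6.44, 6.40, 5.88 and 7.55. Here 4 of 5 oxycodone libraries were above all 5 saline libraries. The means were 5.84 ± 0.311 and 6.67 ± 0.654 log2 CPM (SD, n = 5 and 5), a difference of 0.84 (exact two-sided permutation p = 0.0238, 0.0476 adjusted over the 2 regions). This test took each dorsal library as a separate unit, although 2 pairs share a title number within their treatment. If such a pair is 1 animal, the p is too small, and the difference with the pairs merged was not tested. Ventral saline libraries ranged from 4.14 to 6.83 and ventral oxycodone libraries from 4.402 to 6.99. The ventral means were 5.20 ± 0.894 and 5.69 ± 0.836 log2 CPM (SD, n = 6 and 6), a difference of 0.50 with an exact two-sided permutation p of 0.342. Without both sixth libraries the difference was 0.80 (exact permutation p = 0.119). Its highest saline library was replicate 6 and its highest oxycodone library replicate 4, the same libraries that held most of the highest values of the 9 genes. Dorsal oxycodone replicate 5 was likewise the highest in haemoglobin of all 22 libraries. Other dorsal libraries went the other way. Saline replicate 3, with the lowest dorsal haemoglobin level (5.40), was the highest of its group for 5 of the 9 genes. Oxycodone replicate 1, with the next highest dorsal level (7.09), was the lowest of its group for 3 of the 9.

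**Figure D3:**
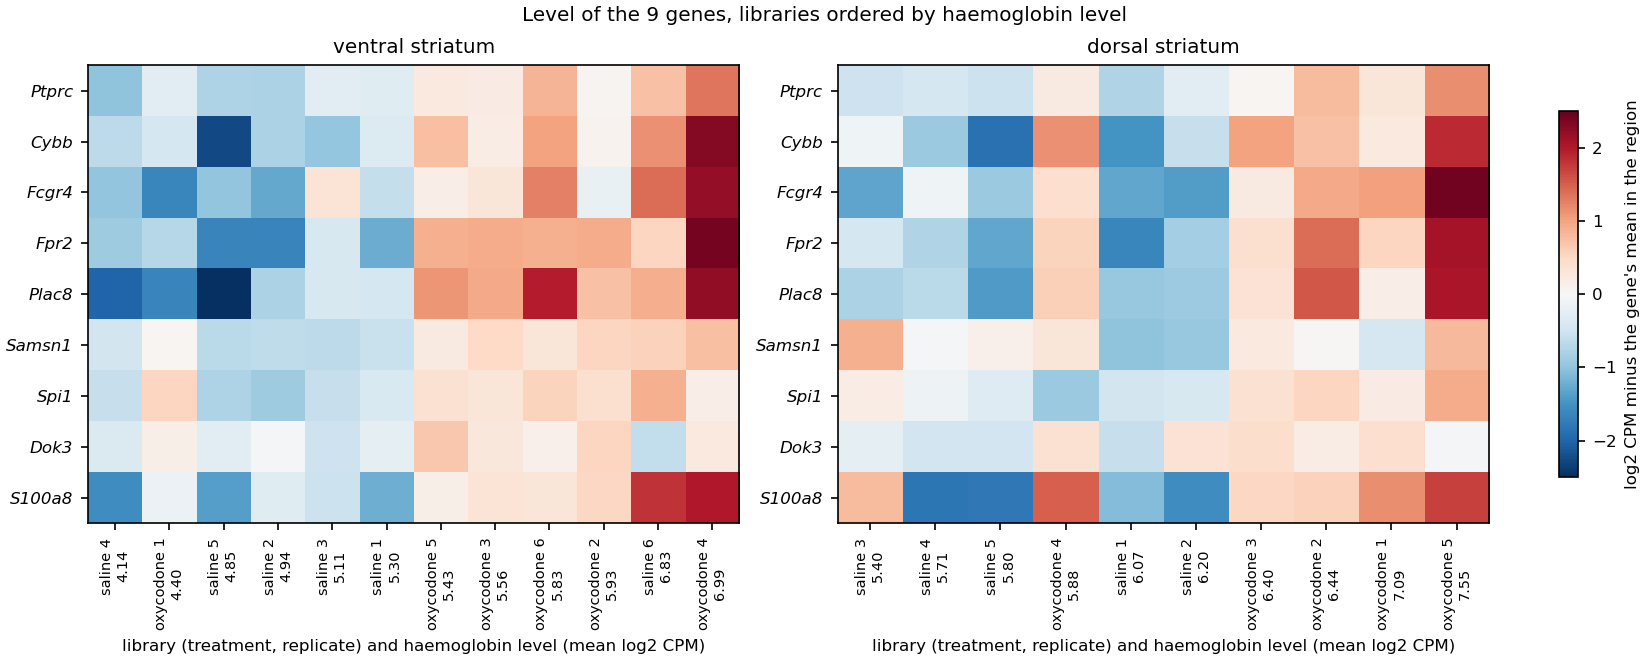
Level of each of the 9 genes in each library, as log2 CPM minus the gene's mean in the region (colour), with the libraries of each region ordered by haemoglobin level (given under each library as mean log2 CPM). Red cells gather at the right, where ventral saline 6 and oxycodone 4 (6.83 and 6.99) and dorsal oxycodone 5 (7.55) stand.

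Across the 12 ventral libraries, 7 of the 9 genes followed the haemoglobin level with a Pearson r of at least 0.7, a bound set after the values were seen. The same bound was reached by 3.1% of all genes tested, whose median r was -0.012 against 0.80 for the 9. Ptprc had r = 0.891 and Spearman's rho = 0.874, Fcgr4 0.889 and 0.832, and S100a8 0.888 and 0.895. Plac8 had r = 0.835, Cybb 0.795, Fpr2 0.777 and Samsn1 0.748, with rho of 0.86, 0.839, 0.79 and 0.818. Adjusted over the 9 genes, the permutation p (100000 resamples, two-sided) of r was 0.000585 for Ptprc and Fcgr4, 0.00096 for S100a8, 0.00126 for Plac8, 0.00342 for Cybb, 0.00405 for Fpr2 and 0.00593 for Samsn1, and that of rho was at most 0.00463 for these 7. Spi1 had r = 0.575 and rho = 0.566 (adjusted permutation p = 0.058 and 0.0658). Dok3 had r = 0.152 and rho = 0.308 (adjusted permutation p = 0.631 and 0.332).

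Saline replicate 6 and oxycodone replicate 4 were the libraries farthest from the median haemoglobin level. Without them, r was 0.867 for Plac8, 0.801 for Ptprc and 0.762 for Fcgr4, with adjusted permutation p of 0.0129, 0.0253 and 0.0327. For Fpr2 and S100a8 r was then 0.708 and 0.698, each with an adjusted permutation p of 0.0504, and for Samsn1 and Cybb 0.602 and 0.585, each with 0.0944, so these 4 relations no longer passed without those libraries. Spi1 had r = 0.486 and Dok3 r = 0.557 in the 10 libraries.

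The relation was also read within each treatment. Within the 6 ventral saline libraries r was 0.971 for Ptprc, 0.912 for S100a8, 0.852 for Fcgr4, 0.84 for Plac8, 0.838 for Samsn1, 0.735 for Cybb and 0.726 for Fpr2. Within the 6 ventral oxycodone libraries r was 0.876, 0.906, 0.918, 0.878, 0.911, 0.871 and 0.978 for the same genes in that order. The exact permutation p of these 7, unadjusted, ran from 0.00556 to 0.138 within saline and from 0.00417 to 0.0431 within oxycodone libraries. Spi1 had r = 0.887 within saline and -0.712 within oxycodone libraries, with exact permutation p of 0.0597 and 0.117. Dok3 had r = -0.531 and 0.085, with exact permutation p of 0.272 and 0.872. Labels place 8 ventral libraries in sequencing lane 1, evenly split by treatment, and among these r was 0.977 for Plac8, 0.914 for Ptprc, 0.877 for Fcgr4, 0.856 for Cybb, 0.854 for S100a8, 0.84 for Fpr2 and 0.696 for Samsn1. Lane 2 held 4 libraries, too few for a coefficient. Without both sixth libraries r ran from 0.702 for Samsn1 to 0.904 for Ptprc among these 7 genes, and was 0.4 for Spi1 and 0.508 for Dok3. No coefficient is given for the dorsal libraries, whose groups hold 5 each.

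**Figure D4:**
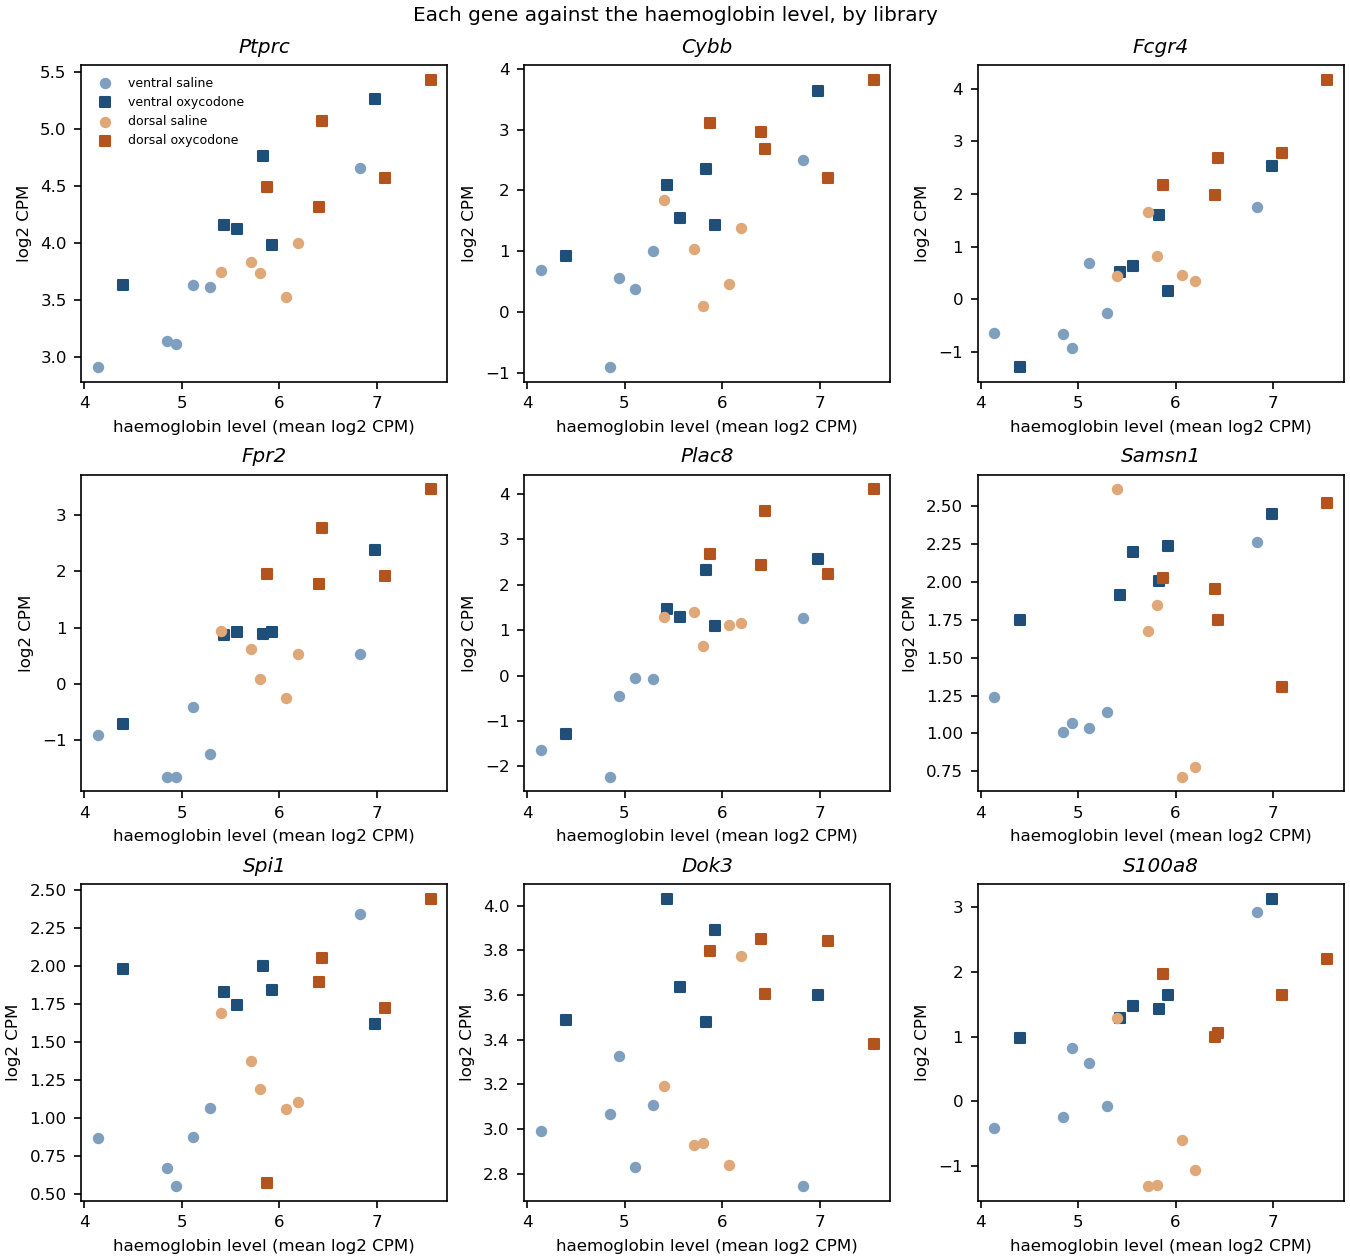
Log2 CPM of each of the 9 genes against the haemoglobin level (mean log2 CPM of 4 haemoglobin genes), 1 point per library, circles for saline and squares for oxycodone, blue for ventral and orange for dorsal. In the ventral libraries the points of Ptprc rise along the axis within both treatments, while those of Dok3 form a higher oxycodone band and a lower saline band over the same haemoglobin range.

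With the haemoglobin level as a covariate in the edgeR fit, log2 changes of the 9 genes ran from 0.11 to 2.32 dorsally, with a median of 1.19, and from 0.28 to 1.71 ventrally, with a median of 0.62. In that fit 0 of the 9 passed in either region, and ventrally 0 had passed without the covariate as well. The ventral edgeR adjusted p of the 9 ran from 0.157 to 0.775 with the covariate and from 0.262 to 0.747 without it. Ventral SEs were smaller with the covariate for each gene except Dok3. Ptprc went from 0.79 (SE 0.34) to 0.50 (SE 0.14), and Dok3 from 0.69 (SE 0.13) to 0.72 (SE 0.14). Of all genes tested, 2 passed dorsally and 1 ventrally. The part of haemoglobin-linked RNA in the levels of the 9 genes was not tested further.

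Marker lists of cells that carry these genes were read in the same libraries. Of 18 neutrophil genes the summed CPM ran from 14.5 to 17.4 in ventral saline replicates 1 to 5, was 41.0 in saline replicate 6, and ran from 21.0 to 43.4 in ventral oxycodone libraries. Dorsally it ran from 10.9 to 26.5 in saline and from 18.2 to 40.2 in oxycodone libraries. Ly6g, a defining surface protein of neutrophils, had 9 counts in all 22 libraries together, and 0 in all 11 saline libraries. Of the neutrophil genes 4 were tested ventrally and 7 dorsally, with 0 called in either fit. Their log2 changes were positive for 4 ventrally and 5 dorsally, with medians of 0.45 and 0.66. Of 12 monocyte genes 8 were tested dorsally, 6 of them with positive log2 changes and a median of 1.37, and Itgal was the only one called. Treml4, a gene of non-classical monocytes, had 0.792 and 3.47 CPM in dorsal saline and oxycodone libraries (log2 change 2.13, SE 0.59, edgeR adjusted p = 0.183). Ccr2, the chemokine receptor of classical monocytes, had 1.67 and 0.676 CPM (log2 change -1.31, SE 0.81, edgeR adjusted p = 0.974). The monocyte list summed to 159 to 257 CPM in dorsal saline and 189 to 409.9 CPM in dorsal oxycodone libraries. Ventrally 5 of its 6 tested genes had positive log2 changes, with a median of 0.35, and 0 were called.

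Microglial markers had small log2 changes beside those of the 9 genes. Their 16 genes summed to 606 to 639 CPM in dorsal saline and 638 to 776 CPM in dorsal oxycodone libraries, and to 454 to 568.3 and 476 to 646 CPM ventrally. The median log2 change was 0.12 dorsally, with 10 of 16 positive, and 0.16 ventrally, with 13 of 16 positive, and 0 of 16 passed either edgeR fit. P2ry12, the purinergic receptor of resting microglia, had 38.3 and 31.8 CPM in dorsal saline and oxycodone libraries, and Tmem119 had 12.6 and 15.6. Of 10 border macrophage genes 6 were tested ventrally and 8 dorsally, and 0 were called. The T cell receptor chains Cd3e and Cd3d had 5 and 8 counts over all libraries, and the B cell gene Ms4a1 had 4. Most genes of the lymphocyte and platelet lists were too low to be tested. Of 12 T and NK cell genes 2 were tested ventrally and 3 dorsally, and of 9 B cell genes 1 in each region. Of 6 platelet genes 2 were tested ventrally and 3 dorsally, and all 10 endothelial genes were tested in both. Among those tested, 0 were called in either region. Of 7 red cell genes Alas2, which starts haem synthesis in erythroid cells, was called dorsally (log2 change 0.76, SE 0.15, edgeR adjusted p = 0.0197). Of the 6 red cell genes tested there 3 had positive log2 changes, with a median of 0.004, and Epor, the erythropoietin receptor gene, had -0.25. The part of any of these cell types in the levels of the 9 genes was not tested.

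Each of the 9 genes was set against the mean log2 CPM of the other 8. Dok3 was the least like the rest in the ventral striatum, with a Pearson r of 0.396 over 12 libraries, followed by Spi1 at 0.736, and the other 7 lay between 0.836 and 0.961. Over the 10 dorsal libraries Samsn1, Dok3 and Spi1 had r of 0.514, 0.527 and 0.608, and the other 6 lay between 0.827 and 0.986. Outside the set, the genes whose pattern was most like the mean of the 9 over the ventral libraries were C3 (complement component 3, r = 0.983), Pirb (an inhibitory immunoglobulin-like receptor, 0.969), Map3k8 (0.968), Pilra (0.968) and Slc19a3 (a thiamine transporter, 0.96). Over the dorsal libraries they were Gm49339 (0.975), Pdzd2 (0.974), Anxa2 (0.967), C1ra (a complement protease, 0.964) and Sla (0.962). The 2 lists share no gene. Points in these comparisons share their library, its depth and its makeup, so the coefficients are descriptions.

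Ventral oxycodone replicate 4 and dorsal oxycodone replicate 5, the libraries with the most high values, carry the same title number, 7. Over the 14357 genes at a mean of at least 1 CPM their deviations from the group means had r = 0.317. This was the highest of the 10 comparisons of a dorsal library with the ventral one of its number. The labels do not say that a number stands for 1 animal.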

How the data were processed

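RNA-seq counts of 22 libraries were taken as deposited: whole-number counts for 23119 Ensembl genes, made by the authors with CASAVA 1.8.2, STAR 2.3 and featureCounts, per the submitters' processing notes, which name mm10, GRCm38 and mm9 without roles. Strand setting and treatment of multi-mapping reads are not given in the sources used here. Gene identifiers were matched to GENCODE M21 symbols (96%).

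Within each region, oxycodone was compared with saline by the edgeR quasi-likelihood test (edgeR 4.0.16, R 4.3.3; filterByExpr, TMM factors, robust dispersions), two-sided, with Benjamini-Hochberg adjustment over all genes tested and a threshold of 0.05. CPM are TMM-scaled and log2 CPM use a prior count of 2. The scripts were tested on simulated data. The ventral contrast was planned as a test of the 9 genes, and is given as a description because it may have helped to choose them. Alternatives used DESeq2 1.42.0 and limma-voom (limma 3.58.1), other scaling and filters, covariates, lanes, title suffixes and libraries left out. The replicate check gave 2 of 10 dorsal libraries that correlated best with the ventral library of their own title number, so titles were not taken as pairs. After the data had been seen, 3 were added: leaving out both sixth ventral libraries while keeping the genes of the full fit, the haemoglobin difference without them, and the haemoglobin relation in lane 1.

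The 9 genes and the 21 marker and pathway lists (199 genes) were chosen with earlier results of these data known. Named genes are the 9, partner genes fixed by function (among them Cyba, Ncf1, Ncf4, Fcer1g, Fpr1, S100a9, Itgal and Itgb2), up to 2 per list by lowest ventral p, and the 5 most alike per region. A subset of these is printed, and some are not reported here. The other genes named (Lyn, Anxa1, Treml4, Ccr2, Dok1, Dok2, Irf8, Alas2 and the defining cell markers) were picked from the lists after their values were seen. Ventral depth was 8408829 to 11000345 counts and dorsal depth 11314079 to 21921963, and limits for 0 counts cover counting error only. Figures were drawn with matplotlib 3.10.9.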

Additional observations from a re-analysis of the deposited data

Results flagged for a closer look

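In 12 of 40 combinations of group and measure (the 9 genes and the haemoglobin level in 4 groups), the highest library stood apart from the next. The gap was larger than Dixon's 95% criterion allows, where chance gives about 1 in 20 for normally distributed values. CPM from low counts need not be normally distributed, so the share is a description. Ventral saline replicate 6 stood apart for 6 genes. It held 25.0 CPM of Ptprc (next 12.2), 5.44 of Cybb (next 1.78), 2.19 of Plac8 (next 0.756), 4.58 of Samsn1 (next 2.15), 4.86 of Spi1 (next 1.89) and 7.44 of S100a8 (next 1.57). This is the library with the fewest striatal neuron transcripts and the highest haemoglobin level of its group.

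Ventral oxycodone replicate 4 stood apart for Cybb at 12.3 CPM (next 4.88), for Fpr2 at 5.01 (next 1.69) and for S100a8 at 8.58 (next 2.92). In the dorsal striatum, oxycodone replicate 5 stood apart for Fcgr4 at 17.9 CPM (next 6.74), saline replicate 4 for Fcgr4 at 3.02 (next 1.64) and saline replicate 3 for S100a8 at 2.31 (next 0.533). Combinations of genes in 1 library are not independent of each other.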

How the results depend on the processing

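The ventral count of genes past the threshold was 0 in the edgeR fit of all 12 libraries, 38 by DESeq2, 61 by limma-voom with quality weights and 1 with haemoglobin as a covariate. It was 0 under the other ventral alternatives, in each fit that left out 1 library (0 to 0) and with the title number as a replicate block. The dorsal count was 30, and it was 86 by DESeq2, 58 without robust dispersions, 2 with haemoglobin as a covariate, 5 with all 22 libraries in 1 fit, 7 with the title number as a replicate block (0 of the 9 genes among them), 17 in the libraries without the title suffix P and 1 in those with it. Leaving out 1 dorsal library gave 1 to 63 genes. Without saline replicate 5 there was 1, without oxycodone replicate 2 there were 9, without oxycodone replicate 5 there were 14 and without oxycodone replicate 3 there were 63. Samples of the same title number were not shown to be paired: 1 of 10 correlations of their deviations was over 0.1 (from -0.072 to 0.317). The causes of these shifts were not tested.

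Of 246 ventral values of the 9 genes under alternatives 245 were positive, and of 225 dorsal values 224 were. The exceptions were S100a8 in lane 2, at -0.78, and Samsn1 in dorsal libraries with the suffix, at -0.019. The dorsal haemoglobin difference of 0.84 was 0.78 with the median of the 4 genes (exact permutation p = 0.0873) and 0.32 with 7 red cell genes in their place (p = 0.0952, exact permutation). With 1 library left out it was 0.61 to 1.03 dorsally, with p from 0.0159 to 0.0476, and 0.24 to 0.82 ventrally, with p from 0.0693 to 0.632, by the same exact permutation test. Samsn1 followed haemoglobin with r = 0.696 in lane 1 (adjusted permutation p = 0.0639), and Spi1 followed the red cell genes with r = 0.647 (adjusted permutation p = 0.0289). Depth limits the ventral values most for Fpr2, Fcgr4 and Plac8, which had medians of 9, 10 and 12 counts per library.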
